A study of Mus musculus with 2 samples.

Results

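Receptors for fibroblast growth factors (FGFs) and the cell surface proteoglycans that hold FGFs to them were followed in cultured mouse stromal vascular cells. The set comprised 10 genes of the 27995 listed in both count matrices, chosen by name with earlier results of these data known. They were the receptor tyrosine kinases Fgfr1 and Fgfr2, the kinase-lacking receptor Fgfrl1, the β-klotho gene Klb, the syndecans Sdc1, Sdc2, Sdc3 and Sdc4, and the glypicans Gpc1 and Gpc6. Stromal vascular cells had been isolated from pooled inguinal white (iWAT) and pooled interscapular brown (iBAT) adipose tissue of wild-type C57BL/6N mice aged 8 to 12 weeks, and were grown in primary culture to 80% confluency. Per the labels, a depot's cultures comprised an untreated one and ones exposed for 48 h to 5.5 nM of FGF1, of FGF2 or of FGF8, whereas the published methods name vehicle, FGF1 and FGF2 for this assay. The treatments of a depot were tagged and merged, 10000 cells of each, into 1 whole-transcriptome library per depot. No tag per cell was used here, so every value pools the treatments of a depot and none describes the effect of an FGF.

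FGFs signal by pairing receptor tyrosine kinases, and paracrine FGFs such as FGF1, FGF2 and FGF8 do so in a complex with heparan sulfate, a long sulfated sugar chain. Syndecans, which cross the membrane, and glypicans, which are anchored to it by a lipid, carry most of the heparan sulfate at the cell surface. Endocrine FGFs bind these chains weakly and need a klotho protein instead, and β-klotho together with FGFR1 makes adipocytes responsive to FGF21. Fgfr1 is the FGF receptor best known from cultured preadipocytes.

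The published filter (more than 200 and fewer than 7500 detected genes, under 30% mitochondrial transcripts) kept 29744 iWAT and 28215 iBAT cells. Their median depth was 16204 unique molecular identifiers (UMIs, each marking 1 captured molecule) in iWAT and 27235 in iBAT, and 8 cell barcodes occurred in both libraries. The libraries also differed in sex-linked transcripts, with Xist at 345 and 0.0505 and Ddx3y at 1.2 and 81.9 UMIs of a gene per 1000000 UMIs (CPM) in iWAT and iBAT. With 1 library a depot there was no test, and depot cannot be told apart from any other difference between the pair of libraries. Ratios, levels and shares carry 95% intervals that cover counting error only.

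Cells were sorted into classes by 5 marker genes, each class holding at least 1 UMI of its marker and none of the other 4. The marker list of each class includes the gene that gates it. That gene passes by the gate itself, so 1 marker in each own-class tally below gives no independent support. The Pdgfra-positive class, the stromal one, held 15196 iWAT and 24305 iBAT cells, and 9 of its 10 mesenchymal markers reached 10 CPM in either depot. Epcam-positive cells numbered 2430 in iWAT with 9 of 9 epithelial markers at 10 CPM and at least 3-fold over the stromal class. In iBAT only 7 such cells were found, which are not described. Ptprc-positive cells (103 in iWAT, 131 in iBAT) met this bar for 9 of 9 immune markers in both depots. Pecam1-positive cells met it for 8 of 8 endothelial markers in iBAT (147 cells), but the 91 in iWAT met it for 6 of 8, and their summed mesenchymal markers stood at 23126 CPM beside 29460 in stromal cells. That group is therefore called by its gate alone. Sox10-positive cells met the bar for 8 of 8 Schwann cell markers in iBAT (510 cells) with summed epithelial markers at 4.07 CPM, and also in iWAT (243 cells), where 7 of 9 epithelial markers met it too, at a summed 554 CPM. In iWAT 83.8% of all 2887 cells with a Sox10 UMI had an Epcam UMI as well, and the 2046 of them without any other class marker are given as a group of their own.

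In the stromal cells of both depots Fgfr1 was the prevailing FGF receptor, and it differed little between depots. Fgfr1 stood at 294 CPM (292 to 296) in iWAT and 284 CPM (283 to 285) in iBAT, a ratio iBAT over iWAT of 0.964 (0.956 to 0.972). Of all UMIs of Fgfr1 to Fgfr4 in stromal cells, Fgfr1 took 88.0% (87.8 to 88.2) in iWAT and 86.4% (86.2 to 86.5) in iBAT. The other receptors, Fgfr3 and Fgfr4, together with the classical klotho gene Kl, were below 10 CPM in both depots, with 0.595 and 1.20 CPM for Fgfr3, and 0.194 and 0.266 CPM for Fgfr4.

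Across classes Fgfr1 was highest in the Pdgfra-positive cells. In iWAT the order of levels below stromal cells was the Pecam1-gated group (247 CPM, 223 to 274), the Sox10-positive cells (212, 196 to 229), the Epcam-positive cells (187, 182 to 192), the cells positive for both Epcam and Sox10 (148, 143 to 153) and the immune-like cells (78.0, 63.3 to 95.2). In iBAT the order was endothelial-like cells (125 CPM, 113 to 139), Schwann-like cells (82.0, 76.0 to 88.4) and immune-like cells (44.7, 37.4 to 53.1). The counting intervals of neighbours overlapped only for the Pecam1-gated and Sox10-positive groups of iWAT. Relative to stromal cells of the same library, Fgfr1 was 0.158-fold (0.132 to 0.187) in iBAT immune-like cells and 0.265-fold (0.215 to 0.323) in iWAT immune-like cells. Stromal transcripts were present in this class, where Col1a1, a collagen gene that leukocytes should lack, stood at 15.1% of its stromal level in both depots. Dcn, the matrix proteoglycan decorin of fibroblasts, stood at 28.2% (22.3 to 35.3) in iWAT and 18.6% (14.3 to 23.9) in iBAT, and the Fgfr1 values, 26.5% (21.5 to 32.3) in iWAT and 15.8% (13.2 to 18.7) in iBAT, lay within these Dcn intervals. With at least 2 Ptprc UMIs Fgfr1 in iBAT was at 10.6% (8.25 to 13.3), Col1a1 at 5.90% (5.51 to 6.30) and Dcn at 5.20% (2.85 to 8.73), and in iWAT Fgfr1 was at 14.6% (10.2 to 20.2), Col1a1 at 5.32% and Dcn at 17.2% (11.8 to 24.3).

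**Figure D1:**
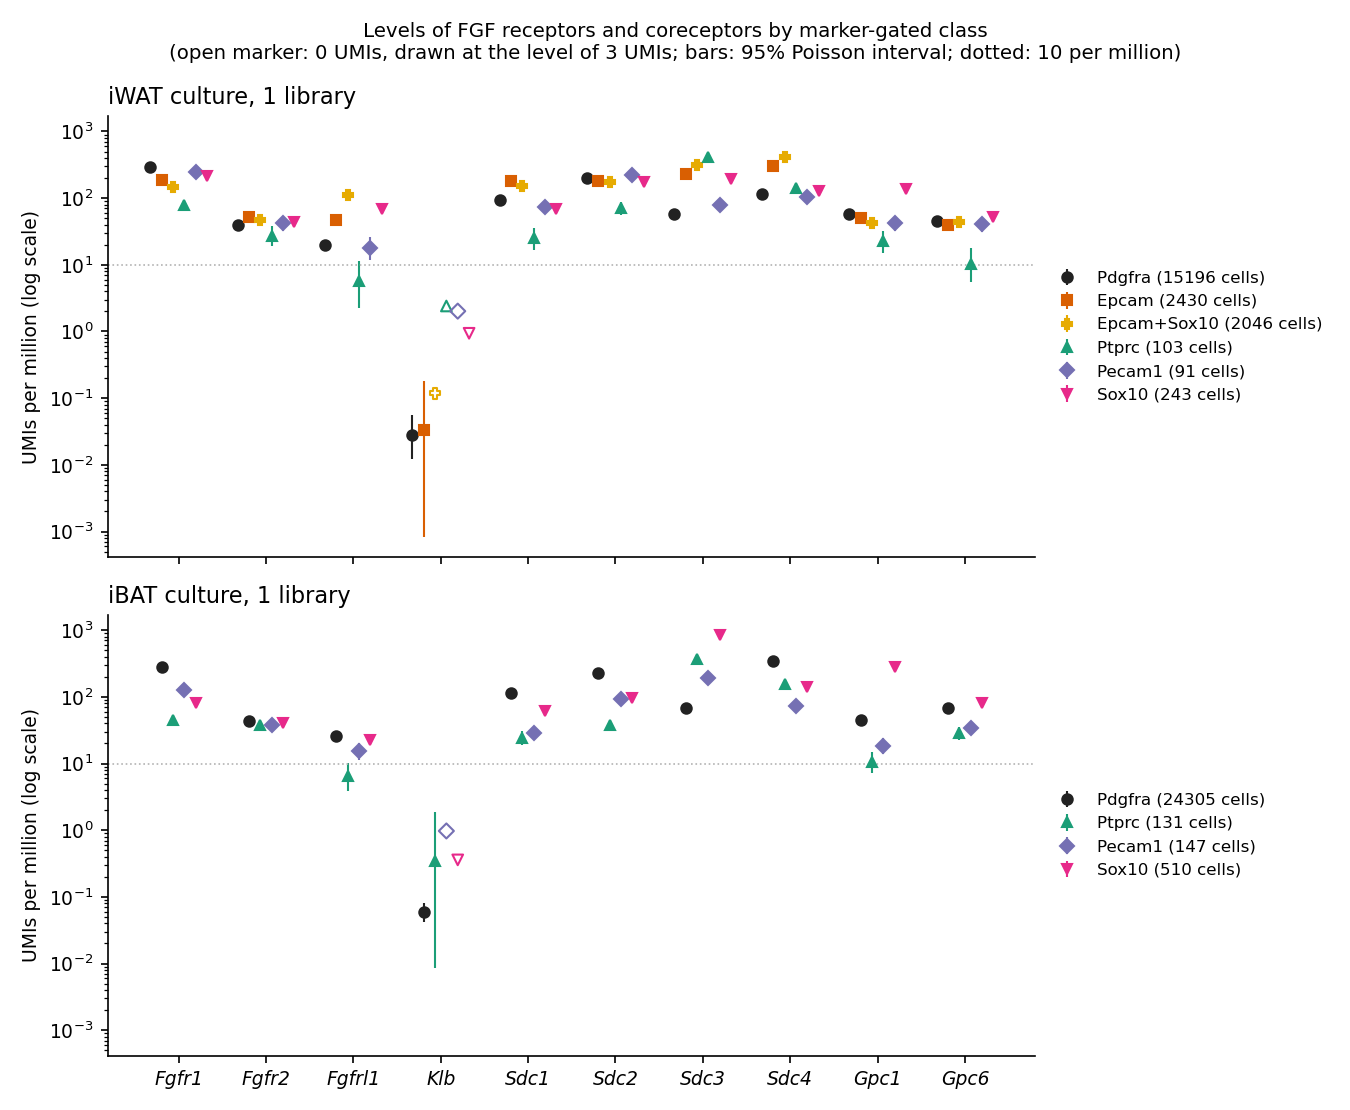
Level of each member (CPM, log axis) by marker-gated class, with a panel per depot, bars for the exact 95% Poisson interval and open markers for 0 UMIs, drawn at the level of 3 UMIs. Fgfr1 is highest in Pdgfra-positive cells, Sdc3 is lowest there, Fgfr2 runs nearly level across classes, and every detected Klb value is below 1 CPM.

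Fgfr2, which binds many of the same FGFs in epithelia and mesenchyme, was nearly level across classes. Stromal cells had 39.4 CPM (38.7 to 40.1) in iWAT and 43.4 (42.9 to 43.9) in iBAT, whose ratio was 1.10 (1.08 to 1.13). In the other classes it ranged from 27.3 CPM (18.9 to 38.2) in iWAT immune-like cells to 52.7 CPM (50.2 to 55.4) in iWAT Epcam-positive cells, and it was within 2-fold of the stromal level in each of them. This held where other stromal transcripts were scarce. In iBAT cells with at least 2 Ptprc UMIs, Fgfr2 was at 83.7% (67.0 to 103) of its stromal level, against 10.6% for Fgfr1, 5.12% for Sdc2 and 5.90% for Col1a1. In GENCODE M39 Fgfr2 spans chr7:129763471-132725079 on the minus strand of GRCm39, since the longest of its 48 transcripts runs over 2961609 bases and the next over 104802. That span overlaps 30 protein-coding genes, 28 of them in the matrices and 14 on the same strand. The gene model the authors counted with was not given in the sources used here, and its part in the level values of Fgfr2 was not tested.

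Fgfrl1 encodes a receptor that binds FGFs and heparan sulfate but lacks the kinase domain. In stromal cells it was the lowest member after Klb, at 20.1 CPM (19.5 to 20.6) in iWAT and 26.2 CPM (25.9 to 26.6) in iBAT, a ratio of 1.31 (1.27 to 1.35). It was higher in iWAT Epcam-positive cells at 46.3 CPM, 2.31-fold (2.18 to 2.45) over stromal cells, and in cells positive for both Epcam and Sox10 at 112 CPM, 5.59-fold (5.34 to 5.85). Immune cells held 5.63 CPM in iWAT and 6.49 CPM in iBAT, from 7 and 19 UMIs. Fgfrl1, Sdc3 and Sdc4 were the members higher by 2-fold or more in the Epcam-positive cells, so the start of their RefSeq promoter windows is shown, on the coding strand from 5′ to 3′ and up to the first base in the window that GENCODE M39 annotates as an exon of the gene. The stretches lie at chr5:108841845-108842034 for Fgfrl1, chr4:130519598-130519825 for Sdc3 and chr2:164285262-164285358 for Sdc4, the last on the minus strand, placed on GRCm39 by exact match. GENCODE M39 starts the Fgfrl1 gene at position 108840206 and the Sdc4 gene at 164285807, so their stretches lie between exons of those gene models, whereas the Sdc3 stretch ends just before the annotated gene. Capitals mark GC boxes, the letters GGGCGG read on either strand, which bind Sp family factors.

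Fgfrl1: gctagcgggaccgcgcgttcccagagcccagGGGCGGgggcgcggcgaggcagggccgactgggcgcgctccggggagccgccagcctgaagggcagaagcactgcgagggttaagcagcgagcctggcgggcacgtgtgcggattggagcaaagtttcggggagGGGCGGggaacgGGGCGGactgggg

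Sdc3: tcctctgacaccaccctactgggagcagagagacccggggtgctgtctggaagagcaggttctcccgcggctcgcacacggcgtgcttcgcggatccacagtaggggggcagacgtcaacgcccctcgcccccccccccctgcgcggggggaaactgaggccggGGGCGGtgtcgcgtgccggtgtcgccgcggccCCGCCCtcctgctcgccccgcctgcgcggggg

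Sdc4: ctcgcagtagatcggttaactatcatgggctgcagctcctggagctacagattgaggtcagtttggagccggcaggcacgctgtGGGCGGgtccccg

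The whole windows of 300 bases held 4 GC boxes for Fgfrl1, 3 for Sdc3 and 4 for Sdc4, a motif found in 35.7% of the 32851 promoter windows of the same length. The window of Sdc1 held 3, and those of Fgfr2 and Klb held 0. The AP-1 letters TGANTCA, in 7.81% of all windows, and the TATA letters TATAAA, in 13.6%, were in none of these 6 windows. The E-box letters CACGTG, in 7.15% of all windows, occurred once each in Fgfr2 and Fgfrl1. Fgfr1, Sdc2, Gpc1 and Gpc6 had no entry. These are counts of letters in a window and say nothing of binding.

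Klb was close to absent. Stromal cells held 8 Klb UMIs in iWAT and 41 in iBAT, that is 0.0282 CPM (0.0122 to 0.0555) and 0.0589 CPM (0.0423 to 0.0799). The ratio of 2.09 had an interval from 0.968 to 5.16, and the gene stayed under the 10 CPM floor for calling a ratio. It did so in every comparison, so counts out of 10 members include Klb, which could not be called, whereas the gene shares beside them cover only genes at the floor. Immune, endothelial and Schwann-like cells of iBAT held 1, 0 and 0 Klb UMIs. A count of 0 in the 510 Schwann-like cells allows a level of up to 0.359 CPM, which 3 UMIs would give.

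Sdc4, a syndecan found at cell adhesions, was the member that differed most between depots in stromal cells. Stromal cells had 115 CPM (114 to 116) in iWAT and 342 CPM (340 to 343) in iBAT, a ratio of 2.98 (2.94 to 3.01). On the log2 scale this was 1.57, where the median of all 8963 genes at the floor was 0.05, and it stood at the 98.1 percentile of those genes. Sdc4 was the 1 member of 10 at least 2-fold higher in iBAT, where 3.77% of these genes were, and 0 of 10 were at least 2-fold higher in iWAT, where 4.34% of these genes were. The remaining 8 above the floor lay between 0.766 for Gpc1 and 1.46 (1.43 to 1.49) for Gpc6. Among them Sdc1 was at 92.7 and 114 CPM (ratio 1.23, 1.22 to 1.25), Sdc2 at 203 and 231 CPM (1.14, 1.13 to 1.15) and Sdc3 at 58.4 and 69.2 CPM (1.19, 1.17 to 1.21), iWAT before iBAT.

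**Figure D2:**
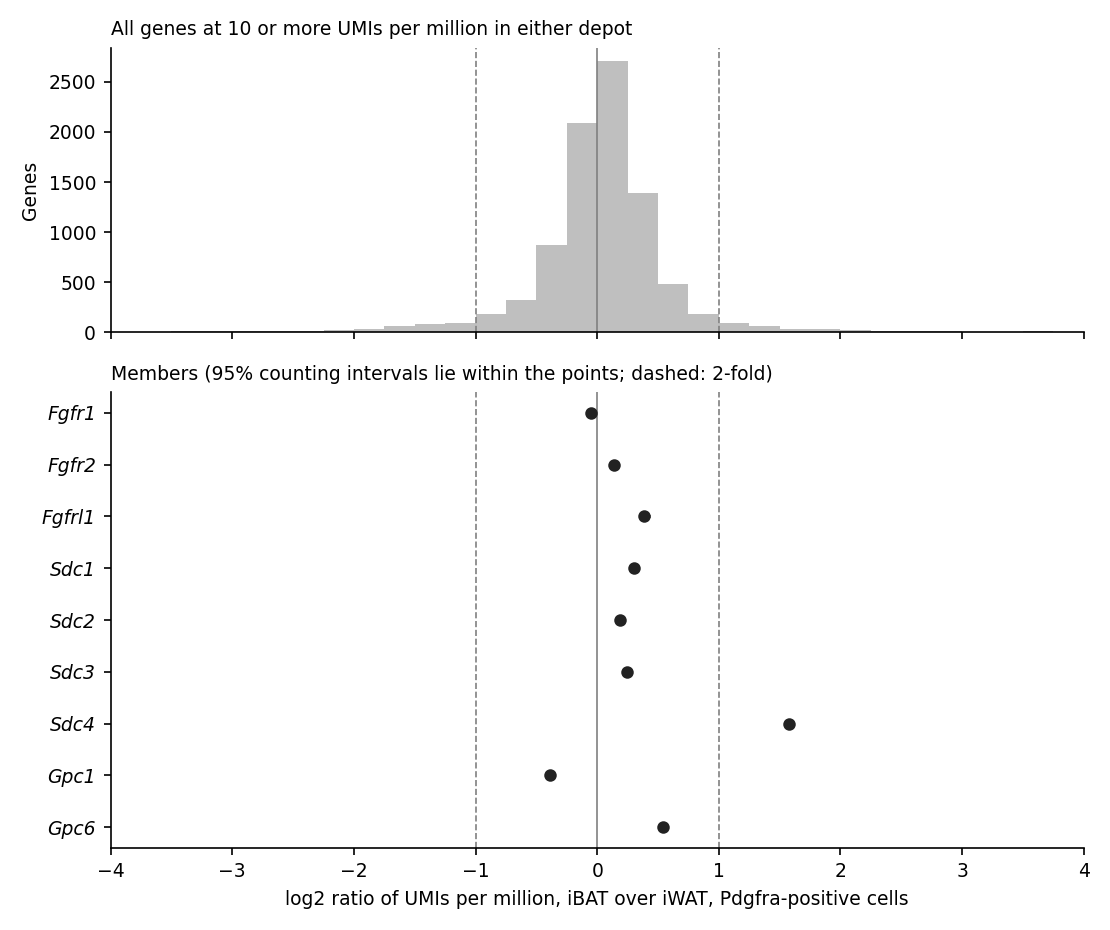
Ratio of CPM in Pdgfra-positive cells, iBAT over iWAT, on a log2 axis for each member at the 10 CPM floor, with exact 95% counting intervals that lie within the points, beside the distribution of the same ratio over all genes at the floor. Sdc4 is the only member outside the 2-fold lines.

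The depot difference of Sdc4 held in every part of the stromal population examined, and ratios in the other marker classes lay near or below 1. Within cells positive or negative for Dpp4, Icam1, F3, Mki67 or Fgf2, and within Adipoq-negative cells, the ratio iBAT over iWAT ran from 2.27 (2.18 to 2.36) in F3-negative cells to 3.60 (3.48 to 3.73) in Icam1-positive cells. Cells positive for none of the 5 class markers had 178 CPM in iBAT and 83.2 in iWAT, a ratio of 2.14 (2.07 to 2.21). Immune cells had 154 and 142 CPM (1.08, 0.907 to 1.29), Sox10-positive cells 138 and 128 CPM (1.08, 0.964 to 1.21), and the Pecam1-gated groups 73.1 and 106 CPM (0.691, 0.561 to 0.853). Whether the depot ratio differed between classes was not tested.

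Single stromal cells showed the same contrast. With every cell thinned to 10000 UMIs, a Sdc4 UMI was found in 57.1% (56.3 to 57.9) of 13655 iWAT cells and in 84.1% of 24305 iBAT cells, and 1541 shallower iWAT cells were left out. Cells with 10 or more Sdc4 UMIs made up 0.227% in iWAT and 6.19% in iBAT. Sdc4 also had the largest variance over mean of the 10 members in each depot, 2.08 in iWAT and 3.38 in iBAT, where Fgfr1 had 1.52 and 1.59. This measure tends to rise with the mean, which for Sdc4 was 1.17 UMIs in iWAT and 3.43 in iBAT. It therefore ranks neither members nor depots by relative spread between cells. The most Sdc4 UMIs in 1 thinned cell were 32 in iWAT and 36 in iBAT.

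The make-up of the syndecan family shifted accordingly. In iWAT stromal cells Sdc2, the syndecan typical of mesenchyme, took 43.3% (43.1 to 43.6) of all syndecan UMIs and Sdc4 took 24.5% (24.2 to 24.7). In iBAT stromal cells Sdc4 took 45.2% (45.1 to 45.3) and Sdc2 took 30.6% (30.4 to 30.7). Sdc1, best known from epithelia and plasma cells, took 19.8% and 15.1%, and Sdc3, best known from neural tissue, took 12.4% and 9.15%. The summed syndecan level was 469 CPM in iWAT and 756 CPM in iBAT. UMIs count captured molecules and are not divided by transcript length, so these shares are of captured molecules.

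**Figure D3:**
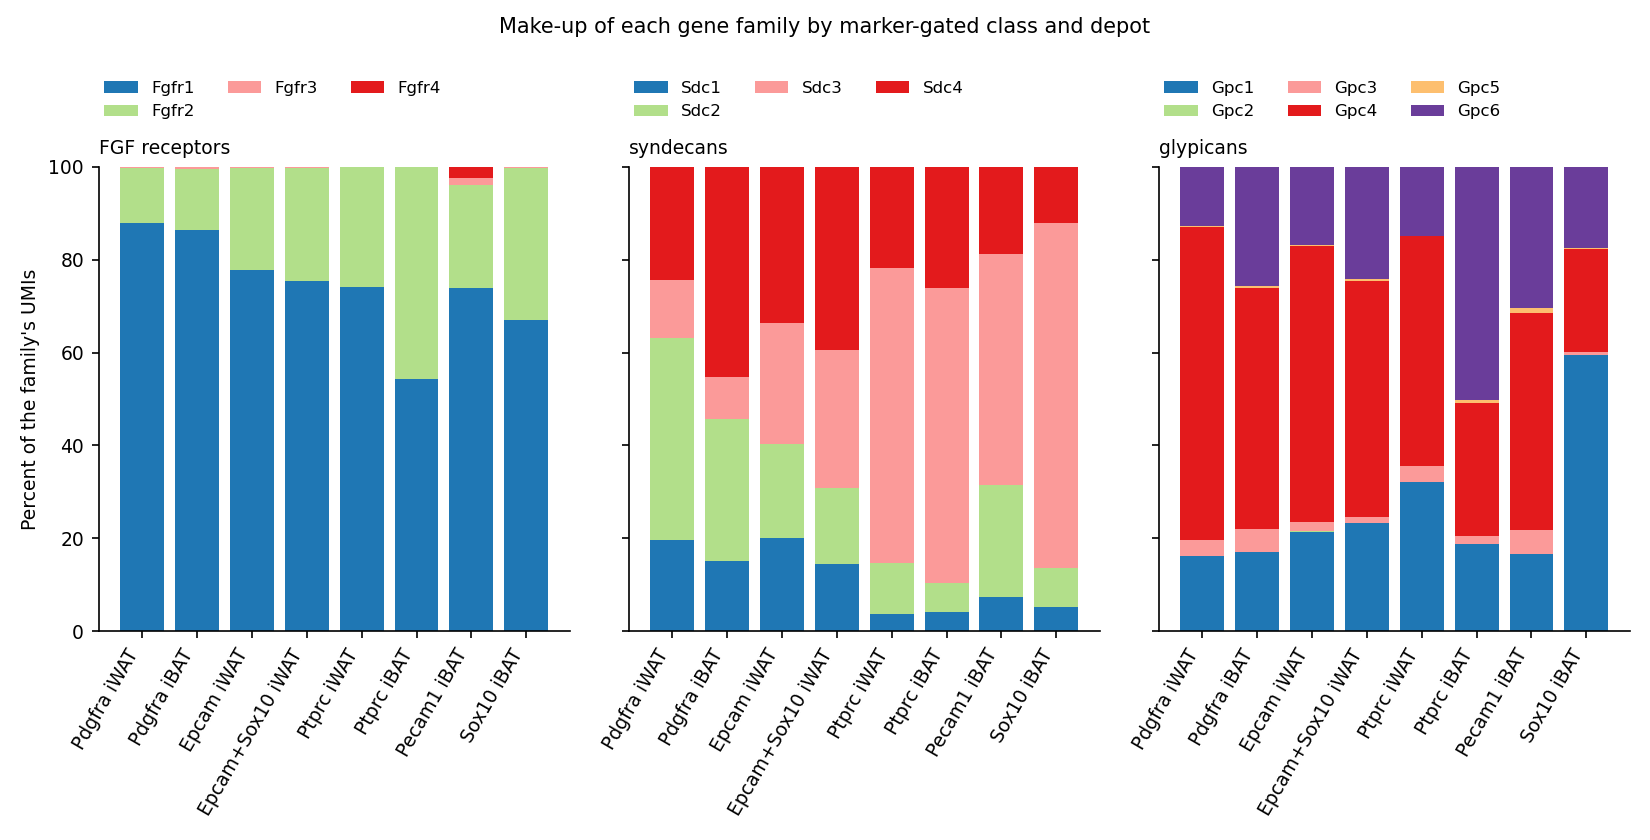
Share of captured UMIs (percent) taken by each gene within the FGF receptors, the syndecans and the glypicans, as stacked bars per class and depot. Sdc4 takes 24.5% of syndecan UMIs in iWAT and 45.2% in iBAT stromal cells, and Sdc3 takes 74.2% in the iBAT Sox10-positive cells.

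Among glypicans the leading gene was Gpc4, which is not a member, with 67.3% of glypican UMIs in iWAT and 51.9% in iBAT stromal cells. Gpc1, a glypican known from nerve and tumour cells, took 16.1% (15.9 to 16.4) and 17.1% (16.9 to 17.3). Its level was 58.3 CPM in iWAT against 44.6 in iBAT, 0.766-fold in iBAT (0.751 to 0.780). Gpc6, a glypican of mesenchyme and growth plate, took 12.8% and 25.7%, at 46.2 and 67.2 CPM. The summed glypican level was lower in iBAT (261 CPM) than in iWAT (361 CPM), and Gpc4 itself went from 243 to 136 CPM.

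Outside the stromal cells, Sdc3 was the member that was higher in every class compared. Its lowest value in each depot was the stromal one. Schwann-like cells of iBAT had 845 CPM (826 to 865), 12.2-fold (11.9 to 12.5) over stromal cells, and immune-like cells had 415 CPM (380 to 452) in iWAT and 375 CPM (353 to 398) in iBAT, 7.11-fold and 5.42-fold over stromal cells of their depot. Epcam-positive cells of iWAT had 232 CPM (227 to 237), and iBAT endothelial-like cells had 192 CPM (177 to 208). The iWAT Sox10-positive cells had 192 CPM, 3.30-fold. The smallest ratio was in the 91 cells of the iWAT Pecam1-gated group, at 80.1 CPM, 1.37-fold (1.137 to 1.645), within 2-fold. In iBAT Schwann-like cells Sdc3 took 74.2% of all syndecan UMIs, and in immune-like cells 63.6% in iWAT and 63.5% in iBAT. These classes were small beside the stromal one, from 91 to 510 cells, except the Epcam-positive class.

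In the Epcam-positive cells of iWAT 3 of 10 members were at least 2-fold higher than in stromal cells, where 7.35% of 9235 genes were, and 0 of 10 were at least 2-fold lower, where 6.09% were. They were Sdc3 (3.97-fold, 3.87 to 4.09), Sdc4 (2.61-fold, 2.55 to 2.67) and Fgfrl1, whose promoter sequences are printed above. Sdc1 reached 178 CPM, 1.92-fold (1.87 to 1.98) over stromal cells, and Fgfr1 was at 0.634-fold (0.618 to 0.652). Cells positive for both Epcam and Sox10 had the same 3 members past 2-fold, Fgfrl1 at 5.59-fold, Sdc3 at 5.44-fold (5.30 to 5.59) and Sdc4 at 3.65-fold (3.57 to 3.73). There 11.2% of 9479 genes were at least 2-fold higher and 12.6% at least 2-fold lower, against 3 and 0 members. Fgfr1 was at 0.503-fold (0.487 to 0.520), just inside the 2-fold line. Mesenchymal markers summed to 10886 CPM in the Epcam-positive cells and 3563 CPM in the cells positive for both, against 29460 CPM in stromal cells, and their part in these ratios was not tested. Sdc4 in these cells, at 419 CPM (411 to 427), was the highest value of that gene in any marker class described.

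In immune cells most members were at least 2-fold lower than in stromal cells. In iWAT 6 of 10 members were at least 2-fold lower, where 17.5% of 9562 genes were, and 1 was at least 2-fold higher, where 14.7% were. In iBAT 7 were lower, where 18.7% of 9448 genes were, and 1 was higher, where 13.1% were. The 1 higher member was Sdc3 in both depots. Fgfr1, Fgfrl1, Sdc1, Sdc2, Gpc1 and Gpc6 were lower in both, and Sdc4 was lower in iBAT at 0.450-fold (0.410 to 0.494) but at 1.24-fold (1.06 to 1.44) in iWAT. With every cell that had a Ptprc UMI counted as immune, Sdc2 in iWAT (0.552) and Sdc4 (0.619), Gpc1 (0.511) and Gpc6 (0.556) in iBAT came within 2-fold. Immune-like cells held 13 Gpc6 UMIs in iWAT and 83 in iBAT, which gave 10.5 and 28.3 CPM. Beside the Col1a1 and Dcn values given above, Sdc2 in iBAT immune-like cells was at 16.1% (13.2 to 19.4) of its stromal level, and with at least 2 Ptprc UMIs at 5.12% (3.40 to 7.39). Sdc4 there was at 45.0% (41.0 to 49.4) and 45.9% (41.4 to 50.9). Of the 6 members called lower in iWAT 5 lay within the Dcn interval, Fgfr1, Sdc1 at 26.9%, Fgfrl1 at 28.1%, Gpc6 at 22.7% and Sdc2 at 34.8%, and Gpc1 was above it at 38.6% (25.7 to 55.9). Of the 7 called lower in iBAT 4 lay within it, Fgfr1, Sdc2, Sdc1 at 21.2% and Gpc1 at 23.7%, and Fgfrl1 at 24.7% (14.9 to 38.6), Gpc6 at 42.2% and Sdc4 were above it. The intervals of Gpc1 in iWAT and Fgfrl1 in iBAT overlapped that of Dcn. In iWAT Col1a1 at 15.1% (14.5 to 15.6) and Col1a2, another collagen gene, at 15.2% (14.45 to 15.98) were below all 6 members. In iBAT only Fgfr1 and Sdc2 lay within the Col1a2 interval, 15.9% (15.2 to 16.7), so the tally depended on the comparator. The part of carried-over stromal RNA in the immune-like values was not tested.

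Endothelial-like cells of iBAT had 5 of 10 members at least 2-fold lower than stromal cells, where 11% of 9388 genes (1031) were, and 1 at least 2-fold higher, where 10% (941) were. Sdc3 was the higher one at 2.78-fold (2.56 to 3.01). Sdc4 was at 0.214-fold (0.187 to 0.244), Sdc1 at 0.250-fold (0.200 to 0.308), Sdc2 at 0.406-fold, Gpc1 at 0.415-fold and Fgfr1 at 0.442-fold. These calls rest on the gate, because 82.7% of the 947 iBAT cells with a Pecam1 UMI also had a Pdgfra UMI, and with those cells counted as endothelial all 6 ratios came within 2-fold (Sdc4 0.823, Sdc3 1.40). Summed muscle markers were at 251 CPM and adipocyte markers at 846 CPM in this class, against 27.6 and 118 CPM in stromal cells. Of 6 adipocyte markers only 1 reached 10 CPM, with Cidec and Lep at 0, whereas 4 of 6 muscle markers reached it. In the 121 iBAT cells with at least 2 Pecam1 UMIs, adipocyte markers summed to 1005 CPM, with Cfd and Plin1 also at 0. Muscle markers summed to 34.9 CPM there, and 2 of 6 reached 10 CPM. All 6 called members lay further from their stromal levels in those cells. Sdc4 was at 17.8% of its stromal level, Sdc1 at 10.3%, Sdc2 at 19.2%, Gpc1 at 12.3%, Fgfr1 at 39.01% and Sdc3 at 313%. Col1a1 was at 11.3% there. The part of adipocyte, muscle and stromal transcripts in the ratios was not tested.

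In the Schwann-like cells of iBAT 2 of 10 members were at least 2-fold higher than in stromal cells, where 9.10% of 9277 genes were, and 3 were at least 2-fold lower, where 10.4% were. Gpc1 joined Sdc3 there at 276 CPM (265 to 287), 6.18-fold (5.92 to 6.45), and took 59.5% (58.0 to 61.1) of the glypican UMIs. The lower members were Fgfr1 at 0.289-fold (0.268 to 0.312), Sdc4 at 0.405-fold (0.382 to 0.429) and Sdc2 at 0.411-fold (0.383 to 0.441). With every iBAT cell that had a Sox10 UMI these 3 came within 2-fold, at 0.620, 0.719 and 0.690, and Gpc1 and Sdc3 were at 3.51-fold and 6.10-fold. Mesenchymal markers summed to 14515 CPM in this class and 13507 CPM in stromal cells, but the genes of the list did not go together. With at least 2 Sox10 UMIs, Col1a1 and the collagen gene Col1a2 were at 132% and 135% of their stromal levels, and Dcn was at 6.92%. The part of stromal transcripts in these ratios was not tested. In the 243 Sox10-positive cells of iWAT Gpc1 was at 138 CPM (125 to 151), 2.36-fold over stromal cells. With at least 2 Sox10 UMIs asked for, Gpc1 was at 269 CPM (240 to 300) in 107 iWAT cells and 290 CPM (278 to 302) in 480 iBAT cells. With every iWAT cell that had a Sox10 UMI, most of them Epcam-positive, it was at 52.6 CPM.

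At the level of single stromal cells, receptor and coreceptors were detected together in most cells. After thinning to 10000 UMIs, 90.2% (89.7 to 90.7) of iWAT and 89.0% (88.6 to 89.4) of iBAT stromal cells had a UMI of Fgfr1 and of at least 1 member coreceptor. Fgfr1 alone was found in 91.0% and 89.2% of the cells, and in 31.2% and 26.7% of thinned immune-like cells. Median depth before thinning was 19019 and 27752 UMIs in these stromal cells and 13488 and 21000 in the immune-like cells. Of the 6 syndecan and glypican members, the median stromal cell held 3 in iWAT and 4 in iBAT, and cells with none made up 0.908% and 0.325%. As nearly every cell had a coreceptor, the share with both follows from Fgfr1 detection and says nothing of an association. Without thinning, the share with Fgfr1 and a coreceptor was 96.6% and 98.5%, and thinned to 5000 UMIs it was 67.4% and 68.3%, so the share followed depth.

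Detection of the partners differed little between cells with and without Fgfr1. Gpc1 was found in 42.6% of Fgfr1-positive and 37.2% of Fgfr1-negative cells in iWAT, and in 34.9% and 26.1% in iBAT. Sdc2 went the other way, with 81.5% and 84.5% in iWAT and 82.7% and 86.9% in iBAT. These differences came to 5.40 and -2.93 percentage points in iWAT and 8.76 and -4.20 in iBAT. In iBAT Sdc3 differed more by Sdc4, with 43.6% of Sdc4-positive and 49.7% of Sdc4-negative cells, or -6.16 percentage points. The size of a difference depends on which member of a pair splits the cells. Over the 9 members other than Klb, each of the 36 pairs was counted in a single direction. In each depot 23 of them had a positive difference and 13 a negative one, and 0 reached 10 percentage points in that direction. Without the same tally over pairs of other genes, these counts cannot be read as particular to the members. The value of Sdc3 by Sdc4 is the other direction of its pair. Sdc1, at 60.1% of Fgfr1-positive and 52.6% of Fgfr1-negative iBAT cells, was the next in that depot to involve Fgfr1. Weak associations of this size in sparse counts are given as a description.

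**Figure D4:**
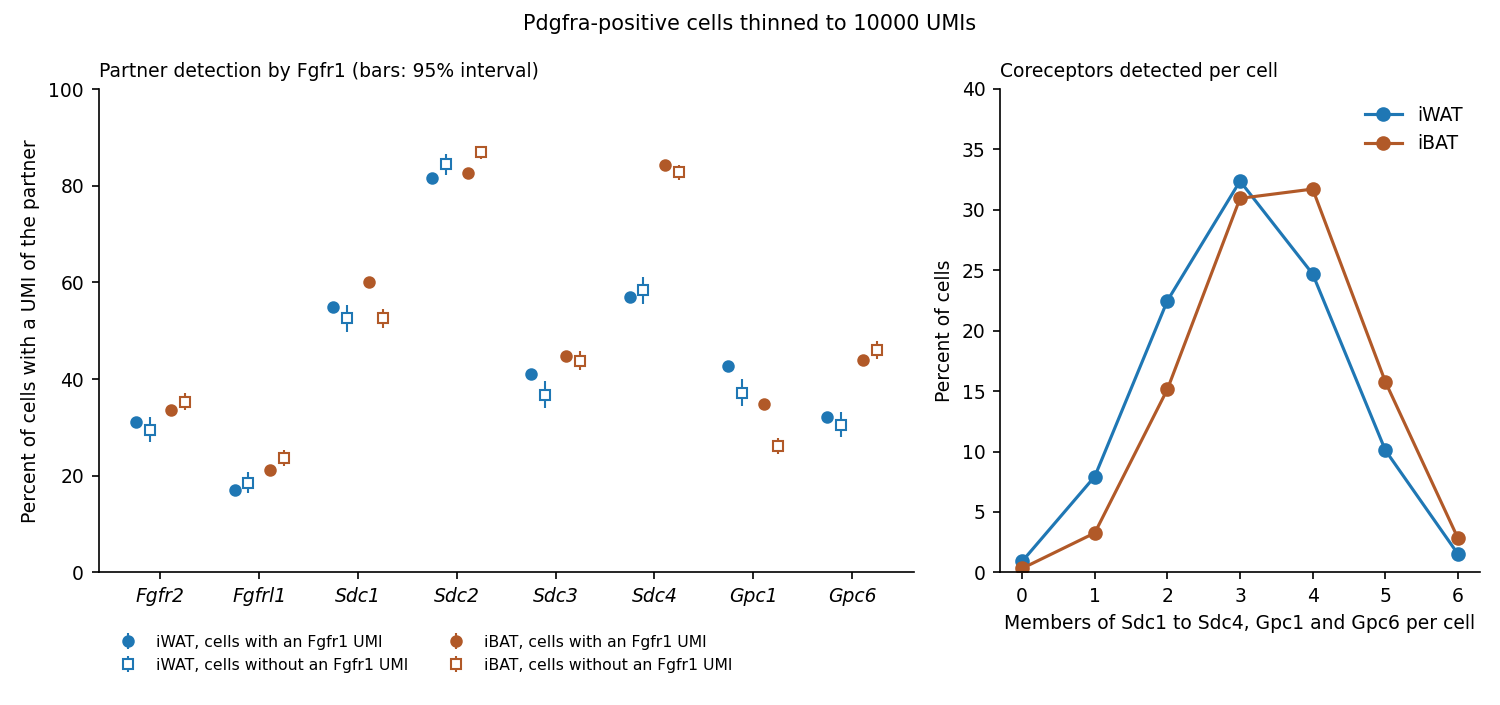
Left, share of Pdgfra-positive cells (percent, thinned to 10000 UMIs, exact 95% binomial interval) with a UMI of each partner, in Fgfr1-positive and Fgfr1-negative cells of both depots; right, number of syndecan and glypican members detected per cell, as a percent of cells. Partner shares lie within 8.76 percentage points of each other, and cells most often hold 3 coreceptors in iWAT and 4 in iBAT.

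Within the stromal class, members differed between cells with and without a UMI of a state gene. In iBAT, Sdc4 was higher in cells with a UMI of F3, a coagulation factor receptor that marks an adipogenesis-regulating subset (366 against 224 CPM, 1.64-fold, 1.60 to 1.67), of Icam1, an adhesion molecule of committed preadipocytes (479 against 314 CPM, 1.53-fold), and of Fgf2 (380 against 275 CPM, 1.38-fold, 1.36 to 1.40). In iWAT the same ratios were 1.25, 1.17 and 1.11. F3-positive cells made up 76.2% of thinned iWAT and 83.6% of thinned iBAT stromal cells. Here F3 thus marked most of the class and not a subset, and its ratios set this majority against a minority without it. Sdc2 was at 247 against 173 CPM in F3-positive and F3-negative iBAT cells (1.42-fold, 1.39 to 1.46), but at 197 against 221 CPM in iWAT (0.892-fold, 0.868 to 0.916). Sdc1 was at 84.5 CPM in F3-positive and 119 CPM in F3-negative iWAT cells, 0.709-fold (0.682 to 0.736).

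Proliferating cells, those with a Mki67 UMI, had Sdc2 at 0.799-fold in iWAT and 0.807-fold in iBAT relative to the other stromal cells, and Fgfr1 at 0.933-fold and 0.942-fold. Cells with a UMI of Dpp4, a marker of interstitial progenitors, had Fgfr1 at 1.14-fold in iWAT and 1.11-fold in iBAT. Their Gpc6 was at 1.30-fold (1.22 to 1.38) in iWAT and 1.02-fold (0.909 to 1.14) in iBAT. They made up 18.0% of thinned iWAT and 1.83% of thinned iBAT stromal cells. Cells with a UMI of Fgf2, the ligand, had Fgfr1 at 1.10-fold in iWAT and 1.12-fold in iBAT.

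Among members above the floor, the largest ratio within the stromal class belonged to Fgfrl1 in Adipoq-positive cells of iBAT. There Fgfrl1 was at 111 CPM in 141 cells and 25.9 CPM in the other 24164, a ratio of 4.30 (3.65 to 5.04), with 3.05 (2.81 to 3.30) without thinning and 6.63 when thinned to 5000 UMIs. Fgfr1 in the same cells was at 233 against 285 CPM (0.817-fold, 0.731 to 0.911), and Sdc4 at 284 against 344 CPM (0.826-fold). Klb had 2 UMIs in these cells and 12 in the others. Without thinning, 275 Adipoq-positive cells held 3 Klb UMIs. Only 12 thinned iWAT stromal cells had an Adipoq UMI, and they are not described.

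**Figure D5:**
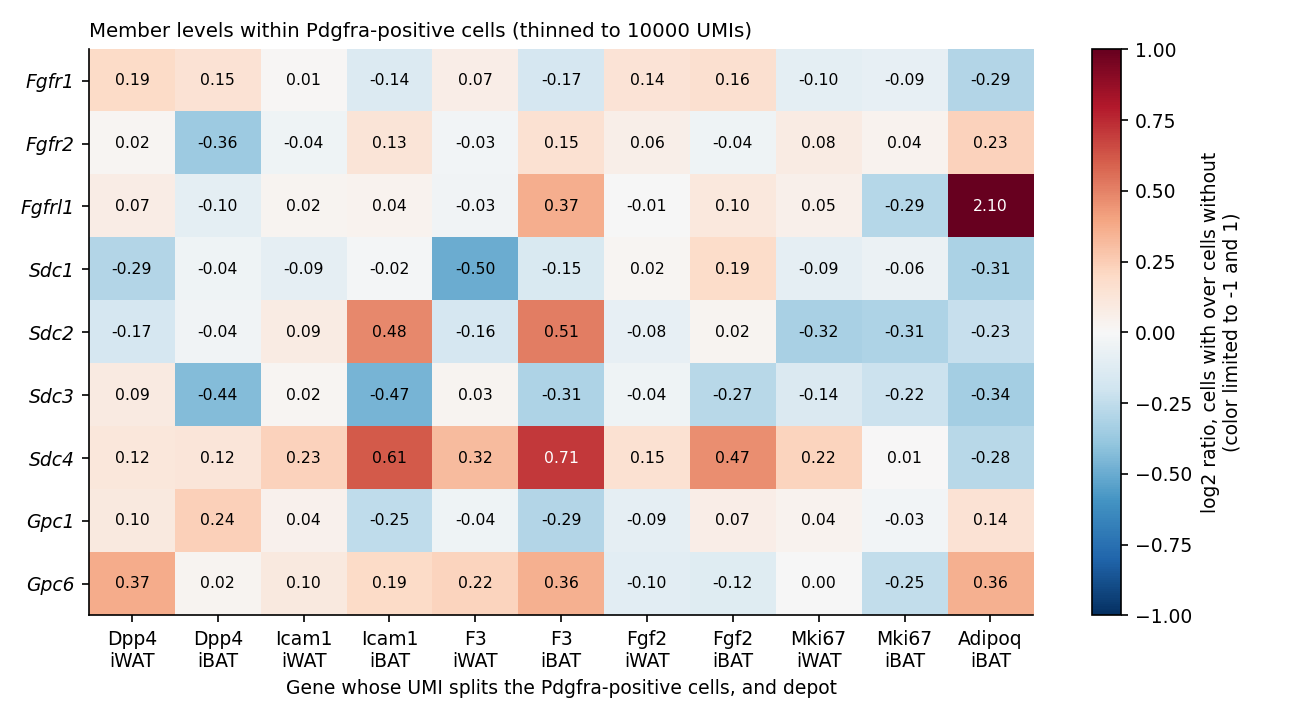
Log2 ratio of the CPM of each member except Klb between Pdgfra-positive cells with and without a UMI of 6 state genes (Dpp4, Icam1, F3, Adipoq, Mki67, Fgf2), thinned to 10000 UMIs, as a heat map with a column per state gene and depot, without Adipoq in iWAT. Among the values drawn, Fgfrl1 in Adipoq-positive iBAT cells stands out at 2.10, and Sdc4 in F3-positive iBAT cells follows at 0.71.

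Other genes of the pathway, 53 in number, were counted in the same way in stromal cells. Of these 20 were below the 10 CPM floor, and of the rest 2 were at least 2-fold higher in iBAT, 3 at least 2-fold higher in iWAT and 28 within 2-fold, where 3.77% and 4.34% of the 8963 genes at the floor were higher in iBAT and in iWAT. The higher ones in iBAT were Col18a1, a basement membrane collagen that carries heparan sulfate (13.5 against 4.18 CPM, 3.22-fold), and Sulf2, which removes sulfate from the chains (34.5 against 16.4 CPM, 2.11-fold). The higher ones in iWAT were Agrn, the proteoglycan agrin (23.3 against 3.94 CPM, 5.90-fold), Hs3st1, which adds a rare sulfate (10.6 against 2.08 CPM, 5.10-fold), and Hpse, the enzyme that cuts the chains (10.9 against 4.39 CPM, 2.49-fold).

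By list, 0 of 10 genes for the linker and polymerization of the chains passed 2-fold, with 2 of them below the floor, and the list was led by the polymerase genes Ext1 (227 CPM in iWAT, 199 in iBAT) and Ext2 (64.1 and 68.0). Of 15 genes that modify the chains 1 passed and 8 were below the floor, and the most abundant were Hs6st2 (158 and 134) and Ndst1 (93.3 and 112). Of 3 genes for chain removal 2 passed, Sulf2 and Hpse, and Sulf1 (157 and 180) was the most abundant. Of 7 receptor adaptors 0 passed and 1 was below the floor, with Ptpn11 at 109 and 108 CPM and Grb2 at 90.1 and 82.4. Of 5 receptor partners 4 were below the floor and so could not pass, Fgfbp3 at 9.61 and 7.12 CPM, Flrt3 at 6.80 and 2.43, and Flrt1 and Fgfbp1 under 1 CPM, while Flrt2 was within 2-fold at 59.4 and 76.7 CPM. The other glypicans had 0 of 4 past 2-fold and 2 below the floor, with Gpc3 at 12.8 and 13.1 CPM after Gpc4, and the most abundant of the 6 other proteoglycans were Cd44 (672 and 581) and Hspg2 (141 and 144).

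Over the 9 values of the class and depot groups, the genes whose log2 levels ran most closely with each member were taken from 11062 genes. For Fgfr1 these were Zwint (r = 0.986), Etfb (0.985) and Angpt4 (0.980), for Sdc2 they were Unc5b (0.985), Maged1 and Ppib, and for Gpc1 they were Tubb4a (0.985), Apod and Kcnh2. Fgfrl1 ran with Lurap1l (0.980), Sdc1 with Sqle (0.968), Sdc3 with Synrg (0.967), Gpc6 with Chic1 (0.989) and Fgfr2 with Denr (0.959). Sdc4 had the loosest neighbours, Ror1 (0.818), Pak1 (0.810) and Ssbp1 (0.807). The 9 points share their libraries, and with so many genes high values arise readily, so these are given with no p.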

How the data were processed

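Whole-transcriptome single-cell RNA-seq was performed on the BD Rhapsody platform with 1 library per depot. The authors aligned and annotated reads with a cloud pipeline for this platform and deposited raw UMI counts per gene and cell. The submitters' processing notes name mm39 and Seurat 5.0.0, and the aligner and annotation release were not given in the sources used here. All barcodes of the deposited matrices had at least 5790 UMIs in iWAT and 10532 in iBAT, from 503611913 and 815235820 UMIs in total.

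Cells were kept with more than 200 and fewer than 7500 genes and under 30% mitochondrial UMIs (99.3% of 29962 iWAT and 98.5% of 28636 iBAT barcodes). Doublets were retained, and Scrublet (assumed rate 0.08) called 2.17% and 2.53%, whose removal was an alternative. Levels were summed UMIs of a gene per 1000000 UMIs of the class (CPM). A ratio was called at 2-fold with at least 10 CPM in either group. Intervals at 95% were exact Poisson for levels, Clopper-Pearson for shares and conditional binomial for ratios. They were checked on counts simulated from the same Poisson and binomial models. That check cannot show their coverage for real counts, which varied more between cells. For shares of cells with a UMI and for stromal subsets, cells were thinned to 10000 UMIs with a fixed seed. Named pathway genes were the 2 most abundant of a list and all past 2-fold. Genes most like a member were the 3 with the highest Pearson r of log2(CPM + 1) over 9 groups of at least 50 cells. Members and lists were chosen with earlier results of these data known. With 1 library per depot no test across samples was run. Gene positions came from GENCODE M39 on GRCm39, and promoter windows from RefSeq on GRCm38.p6, found for 6 of 10 members. Python 3.11.15, numpy 2.4.6, scipy 1.17.1, pandas 2.3.3, scanpy 1.11.5 and matplotlib 3.10.9 were used.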

Additional observations from a re-analysis of the deposited data

Results flagged for a closer look

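For 4 ratios the iWAT and iBAT libraries lay on opposite sides of 1, with counting intervals that did not reach it and values at least 1.5-fold apart, and the difference between the depots was not tested in any of them. They were picked by this rule from the members' ratios in Ptprc-, Pecam1- and Sox10-positive cells and within the stromal class. The share of all genes that meet the rule was not counted, so the number is no result about the members. Sdc4 in Ptprc-positive over Pdgfra-positive cells was at 1.24 (1.06 to 1.44) in iWAT and 0.450 (0.410 to 0.494) in iBAT. Its level in Ptprc-positive cells was 142 and 154 CPM, so the denominators, 115 and 342 CPM, carried most of the difference. Sdc4 in Sox10-positive over Pdgfra-positive cells was at 1.12 (1.01 to 1.23) in iWAT and 0.405 (0.382 to 0.429) in iBAT, with 128 and 138 CPM in the numerators, and with the inclusive gate it was at 2.82 in iWAT and 0.719 in iBAT. Fgfrl1 in Sox10-positive over Pdgfra-positive cells was at 3.42 (2.98 to 3.92) in iWAT and 0.861 (0.742 to 0.994) in iBAT. Summed epithelial markers stood at 554 CPM in the iWAT Sox10-positive cells and 4.07 CPM in the iBAT ones, and their part in the Fgfrl1 values was not tested. Sdc2 in F3-positive over F3-negative stromal cells was at 0.892 (0.868 to 0.916) in iWAT and 1.42 (1.39 to 1.46) in iBAT, from 197 and 221 CPM in iWAT and 247 and 173 CPM in iBAT.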

How the results depend on the processing

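The member counts between depots (1 higher in iBAT, 0 higher in iWAT) and the count of members lower in Epcam-positive cells (0) did not change under any alternative run. All 63 depot ratios of the 9 members above the floor kept their direction, and 0 of them moved by over 1.5 times, with Sdc4 from 2.78 to 3.04, Gpc6 from 1.41 to 1.51, Fgfr1 from 0.931 to 0.986 and Gpc1 from 0.739 to 0.791. With the inclusive gate the Fgfr1 share of receptor UMIs in iWAT was 87.7%, the Sdc4 share of syndecan UMIs 25.1% in iWAT and 44.9% in iBAT, and the Gpc1 share of glypican UMIs 17.5% in iBAT. With at least 2 UMIs of the class marker the Sdc4 share was 26.4% and 46.0%, the Gpc1 share in iWAT 16.8%, and co-detection of Fgfr1 and a coreceptor 91.1% and 89.4%. Co-detection was 88.5% in iBAT with no cell filter, 67.4% and 68.3% at 5000 UMIs, and 96.6% and 98.5% with no thinning, where more or fewer molecules per cell were read.

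Class ratios, whose alternatives were added after seeing the data, depended on the gate: of 378 values 44 moved by over 1.5 times, 28 with the inclusive gate and 16 with the gate of 2 UMIs, and 11 changed direction, 8 and 3 with those gates. Gpc1 in Sox10-positive over Pdgfra-positive iWAT cells went from 2.36 to 0.910 with the inclusive gate, which adds the cells that are also Epcam-positive. That gate also ended the 2-fold calls of Fgfr1, Sdc2 and Sdc4 in iBAT Sox10-positive cells, of Sdc2 in iWAT and Sdc4, Gpc1 and Gpc6 in iBAT Ptprc-positive cells, and of all 6 members called in iBAT Pecam1-positive cells. Sdc3 in iBAT Sox10-positive cells ran from 6.10-fold to 13.0-fold. The 2-UMI gate added Sdc1 in Epcam-positive iWAT cells (2.28) and Fgfrl1 (0.466) and Gpc6 (0.462) in iBAT Pecam1-positive cells, and Fgfrl1 (2.04) and Sdc3 (2.86) in the 21 iWAT cells it left in the Pecam1-gated group. The inclusive gate added Sdc4 in iWAT Sox10-positive cells (2.82, from 1.12). Of 198 ratios within the stromal class 36 changed direction with other thinning, none of them called at 2-fold, and 1 moved by over 1.5 times, Fgfrl1 by Adipoq in iBAT (6.63 at 5000 UMIs). Depth limits the classes of 91 to 510 cells and leaves Klb at counts too low for calling a ratio. No paired analysis was possible because each depot has 1 library.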

Other observations

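Cells positive for none of the 5 class markers, 7300 in iWAT and 1471 in iBAT, held Sdc2 at 216 and 227 CPM, against 203 and 231 CPM in stromal cells. Fgfr1 stood at 265 (iWAT) and 201 CPM (iBAT), against 294 and 284 CPM in stromal cells. Sdc4 was at 83.2 and 178 CPM, against 115 and 342 CPM. Gpc1 was at 53.3 and 62.0 CPM, so that its depot ratio, below 1 in stromal cells, stood above 1 in these. Klb had 3 UMIs in iWAT and 10 in iBAT, 0.0266 CPM (0.00549 to 0.0778) and 0.307 CPM (0.147 to 0.564), and the latter interval does not overlap that of iBAT stromal cells, 0.0589 CPM (0.0423 to 0.0799). In the iBAT group summed adipocyte markers stood at 587 CPM and muscle markers at 756 CPM, against 118 and 27.6 CPM in stromal cells, with 4 of 6 markers of either list at least 3-fold over them. Their part in the values of Klb, Sdc4 and Fgfr1 was not tested. For iWAT, the summed mesenchymal markers of this group came to 27076 CPM, beside 29460 for stromal cells. For iBAT they came to 15373 CPM, beside 13507. The class gates asked for 1 UMI of a marker, so they depended on depth. The median kept cell had 16204 UMIs in iWAT and 27235 in iBAT. Whether the group held stromal cells without a captured Pdgfra UMI was not tested.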
